A study of Mus musculus with 2 samples.

Results

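The genes described here are 6 transcription regulators grouped as T-cell identity factors, read in CD4 and CD8 double-positive (DP) thymocytes. They are *Tcf7* and *Lef1*, which encode the HMG-box factors TCF-1 and LEF1, *Ctnnb1*, which encodes their coactivator beta-catenin, the zinc finger genes *Bcl11a* and *Bcl11b*, and *Myb*. They are defined by their symbols, in a list drawn up with earlier results of these data known, and all 6 were found among the 21041 genes of the deposited table. The study asked what the loss of Cxxc1, a CpG-binding subunit of the Setd1 complex that writes trimethylation on lysine 4 of histone H3 (H3K4me3), does to intrathymic T-cell development. Messenger RNA libraries made from total RNA of thymic DP cells were sequenced, 1 for WT and 1 for *Cxxc1* deficiency. WT mice carried the floxed allele (*Cxxc1* fl/fl) without Cre, and *Cxxc1*-deficient mice were *Cxxc1* fl/fl h*CD2*-Cre by the study's methods, in which Cre driven by human *CD2* sequences removes exons 4 and 5 from an early thymocyte stage and also acts in other immune cells. The genotype label of the deficient sample instead reads Cxxc1+/-, and the library was grouped by its title. The floxed strain had been crossed to C57BL/6 for 5 generations, mice were 3 to 4 weeks old unless specified, and the number of mice behind each library is not given in the sources used here.

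TCF-1 and LEF1 bind the same short DNA motif and act as repressors with Groucho-related TLE proteins or as activators with beta-catenin, which is destroyed by a kinase complex unless a Wnt signal stops it. TCF-1 starts the T-cell programme below Notch and later, together with LEF1, carries cells through the DP stage. BCL11B closes off other fates at T-cell commitment, whereas its paralogue BCL11A is known from progenitors, B cells and plasmacytoid dendritic cells. MYB is needed for survival of DP cells and for *Rag2* and *Cd4* transcription.

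The promoters of *Tcf7*, *Bcl11b* and *Myb* are shown because Cxxc1 binds DNA at CpG, and because these genes, chosen after their values were seen, combine unlike CpG content with unlike change. In DP cells the study found Cxxc1 signal enriched at the centres of CpG-rich stretches (CpG islands), but few of its binding sites overlapped them. Each run is the 250 bases that precede the start of the gene's longest protein-coding GENCODE vM1 transcript on NCBIM37, the build of mm9, read 5′ to 3′ on the strand of the gene, with every CpG in capitals. *Tcf7* lies on chromosome 11, minus strand, between 52065873 and 52096681, and its window is chr11:52096682-52096931. *Bcl11b* lies on chromosome 12, minus strand, between 109148613 and 109241812, with the window chr12:109241813-109242062. *Myb* lies on chromosome 10, minus strand, between 20844736 and 20880790, with the window chr10:20880791-20881040.
Tcf7: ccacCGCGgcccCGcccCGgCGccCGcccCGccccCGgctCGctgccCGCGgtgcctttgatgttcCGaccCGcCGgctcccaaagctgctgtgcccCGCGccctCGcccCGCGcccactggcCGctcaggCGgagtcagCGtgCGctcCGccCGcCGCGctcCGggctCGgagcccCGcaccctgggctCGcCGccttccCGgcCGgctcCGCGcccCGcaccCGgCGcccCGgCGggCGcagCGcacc
Bcl11b: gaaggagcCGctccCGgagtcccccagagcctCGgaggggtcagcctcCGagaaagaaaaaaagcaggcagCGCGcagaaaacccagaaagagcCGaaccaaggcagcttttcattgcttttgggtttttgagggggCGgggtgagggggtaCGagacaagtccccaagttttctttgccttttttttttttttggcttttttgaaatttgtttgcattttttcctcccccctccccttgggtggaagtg
Myb: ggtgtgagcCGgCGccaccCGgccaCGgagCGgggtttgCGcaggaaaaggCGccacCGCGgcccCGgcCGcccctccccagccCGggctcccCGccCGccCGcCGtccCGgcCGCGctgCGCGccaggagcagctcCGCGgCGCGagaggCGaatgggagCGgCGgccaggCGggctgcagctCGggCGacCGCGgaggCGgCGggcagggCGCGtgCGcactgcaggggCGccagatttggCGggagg

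The windows of *Tcf7* and *Myb* held 43 and 40 CpG, more than 99.0% and 98.1% of the 18575 genes with a window. The window of *Bcl11b* held 9 CpG, slightly under the median of 10 over all genes and well under the median of 19 over the 2317 genes with a mean value of at least 100. Among the other members, *Ctnnb1* had 35 CpG, *Lef1* had 26 and *Bcl11a* had 6, the window of the latter overlapping the first exon of other annotated transcripts. The window of *Ctnnb1*, chr9:120842268-120842517, lies inside the span of the gene, since its longest transcript starts downstream of the annotated gene start. The hexamer CTTTGA, the core of the TCF and LEF motif, was searched on both strands and was found in the window of *Tcf7* alone among the 6, 1 time, against 12.8% of all windows. The letters TAACNG, a form of the MYB motif, were likewise searched on both strands and were in no member's window, against 17.7% of all windows. *Lef1* lies on the plus strand of chromosome 3 from 130813389 to 130927274, *Ctnnb1* on the plus strand of chromosome 9 from 120838334 to 120869625, and *Bcl11a* on the plus strand of chromosome 11 from 23978056 to 24074123.

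**Figure D1:**
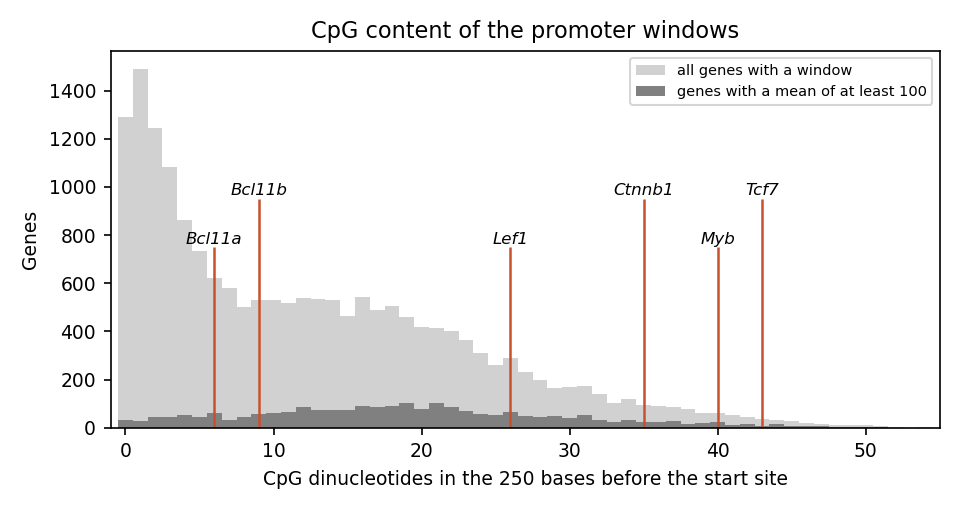
Number of CpG in the 250 bases before the start site (x axis) against the number of genes (y axis, starting at 0), for all genes with a window and for those with a mean value of at least 100. The lines mark the 6 members, from *Bcl11a* with 6 and *Bcl11b* with 9 to *Myb* with 40 and *Tcf7* with 43.

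The deposited values are normalized expression values rounded to whole numbers, and a value of the same gene is compared between libraries as a ratio of *Cxxc1*-deficient to WT. The WT library sums to 1551994 and the deficient one to 981677, both have a median of 36, and the number of reads behind them is unknown, so no counting interval is given. With 1 library per genotype there is no replicate spread and no test, and every difference below is one between these 2 libraries. *Eif2s3y* of the Y chromosome had 0 in WT and 67 in the deficient library, and *Xist*, the RNA that silences an X chromosome in females, had 2419 and 1021, so the deficient library held both kinds of transcript. The sex of the mice is not given in the sources used here, and sex and genotype cannot be told apart. Olfactory receptor genes, which thymocytes are not known to use, give the level of unexpressed genes: the 1122 of them had a median of 22 in WT and 24 in deficient cells and a 95th percentile of 53.95 and 57. The targeted gene, *Cxxc1*, had 91 in WT, above all of them, and 50 in deficient cells, where 135 of them were at least as high. Its ratio of 0.549 was not unusual for its level, since 26.7% of the genes with a mean of 50 to under 100 had one at least as low, and its share of the summed values was 0.869 of that in WT. Of the genes that define DP cells, *Rag1* was the highest, with 20778 and 5058.

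*Tcf7* had the highest value of the 6 genes and, as deposited, a small reduction for its level. It had 5826 in WT and 4461 in deficient DP thymocytes. The ratio of deficient to WT was 0.766, a log2 ratio of -0.39. It was the fifth-highest gene of the table in WT (rank 5) and the fourth-highest (rank 4) in deficient cells. Most other genes of its level were reduced further. The 164 genes with a mean of 500 and over had a median log2 ratio of -1.61, and 84.1% of them were at least 2-fold lower. In that band, 11 genes including *Tcf7* had a ratio at least as high, and 154 had one at least as low. As a share of the summed values, *Tcf7* went from 0.375% in WT to 0.454%, 1.21 times the WT share, so its direction depends on how the libraries are scaled, and with 4 of the 5 scalings tried it was higher in the deficient library. In bulk RNA, a difference of this kind cannot separate fewer cells with a transcript from less RNA per cell.

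*Lef1*, the close relative of *Tcf7*, had 459 in WT and 234 in deficient cells. Its fold reduction of 1.96 lies just short of 2-fold. The log2 ratio of -0.97 differed by 0.09 from the median of -1.06 over the 2308 genes with a mean of 100 to under 500, of which 54.9% were at least 2-fold lower. The change of *Lef1* was therefore close to that of genes of its level. The direction was not stable, since it turned to a log2 ratio of 0.02 when the libraries were scaled to the same median over genes whose mean reached 100.

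*Ctnnb1* had the largest reduction among the members. Its value was 496 in WT and 148 in deficient cells, a fold reduction of 3.35 and a log2 ratio of -1.74. This is -0.68 away from the median of its band, the same band as that of *Lef1*, and 258 of the 2308 genes (11.2%) had a ratio at least as low. The ratio of the *Lef1* to the *Ctnnb1* value went from 0.925 to 1.58.

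*Bcl11b* and *Myb* were lower by nearly the same factor. *Bcl11b* had 1162 in WT and 395 in deficient cells, a fold reduction of 2.94 and a log2 ratio of -1.56. *Myb* had 2621 in WT and 848 in deficient cells, a fold reduction of 3.09 and a log2 ratio of -1.63. Both stayed lower under all 5 scalings. The largest of these shifts is 1.0 on the log2 scale, so any gene more than 2-fold lower as deposited stays lower. Both members sat beside the median of -1.61 over the genes with a mean of 500 and over, by differences of 0.05 and -0.02 on the log2 scale. The ratio of the *Bcl11b* to the *Myb* value was 0.443 in WT and 0.466 in deficient cells, so the balance of these factors hardly moved. *Bcl11b* is among the genes that the study selected on these libraries for a change and for Cxxc1 binding, so its reduction is not independent of that choice.

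*Bcl11a* was near the level of unexpressed genes, with 74 in WT and 64 in deficient cells. Of the 1122 olfactory receptor genes, 1 was at least as high in WT and 30 were in deficient cells. Its log2 ratio of -0.21 compares with a median of -0.53 over the 3657 genes with a mean of 50 to under 100, of which 20.0% were at least 2-fold lower, and it was above 0 with 4 of the 5 scalings. Markers of the cells known for *Bcl11a* were also low. The 9 B cell markers summed to 294 in WT and 242 in deficient cells, with 1 of them in WT and 0 in deficient cells above the 95th percentile of olfactory receptor genes. The 10 markers of dendritic and plasmacytoid dendritic cells summed to 539 and 406, of which *Ly6d* alone made 205 and 88. No marker of these lists was at 0. The part of such cells in the *Bcl11a* value was not tested.

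**Figure D2:**
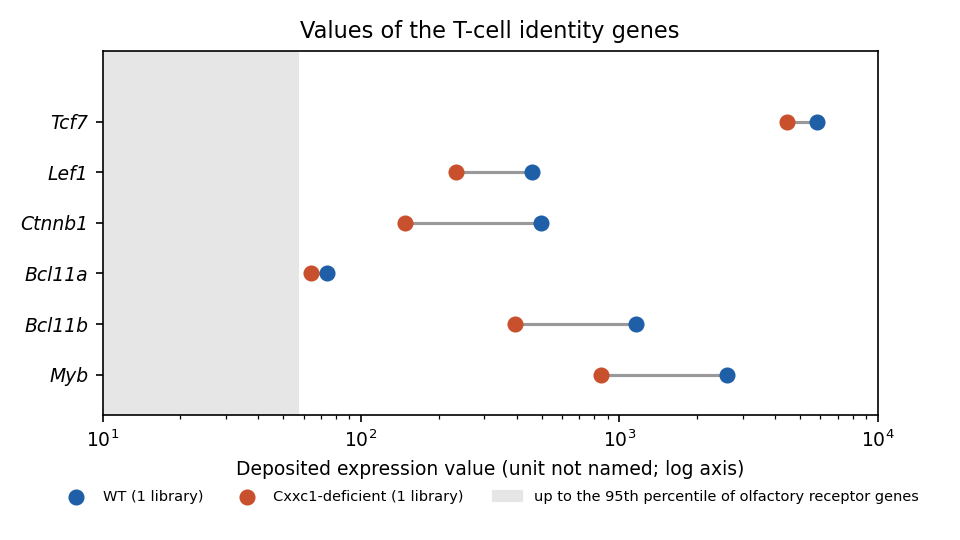
Deposited value (x axis, log scale) of each of the 6 genes in the WT library (blue) and the *Cxxc1*-deficient library (orange), 1 point per library, with the range up to the 95th percentile of olfactory receptor genes shaded. As deposited, all 6 points are lower in the *Cxxc1*-deficient library, by the least for *Bcl11a* (74 to 64) and *Tcf7* (5826 to 4461), both of which turn higher under 4 of 5 scalings, and by the most for *Ctnnb1* (496 to 148).

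As deposited, all 6 members were lower in deficient cells, and 3 of them, *Ctnnb1*, *Myb* and *Bcl11b*, were at least 2-fold lower, while *Tcf7* and *Bcl11a* turned higher under 4 of the 5 scalings and *Lef1* under 1. Over all 20125 genes above 0 in at least 1 library, 17.4% were at least 2-fold lower and 5.89% were 2-fold or more higher. The count of 3 became 2 with the same sum without the 100 highest genes, 1 with the same sum over all genes and 0 with the same median over genes whose mean reached 100. Most of the members have values above those of most genes, and among the 2472 genes whose mean reached 100 the share at least 2-fold lower was 56.8%, against 3 of the 5 members of that level. The median log2 ratio of the 6 members was -1.26, against -0.20 over all genes and -1.08 over those with a mean of at least 100. The share of reduced members was thus near that of other well-expressed genes.

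**Figure D3:**
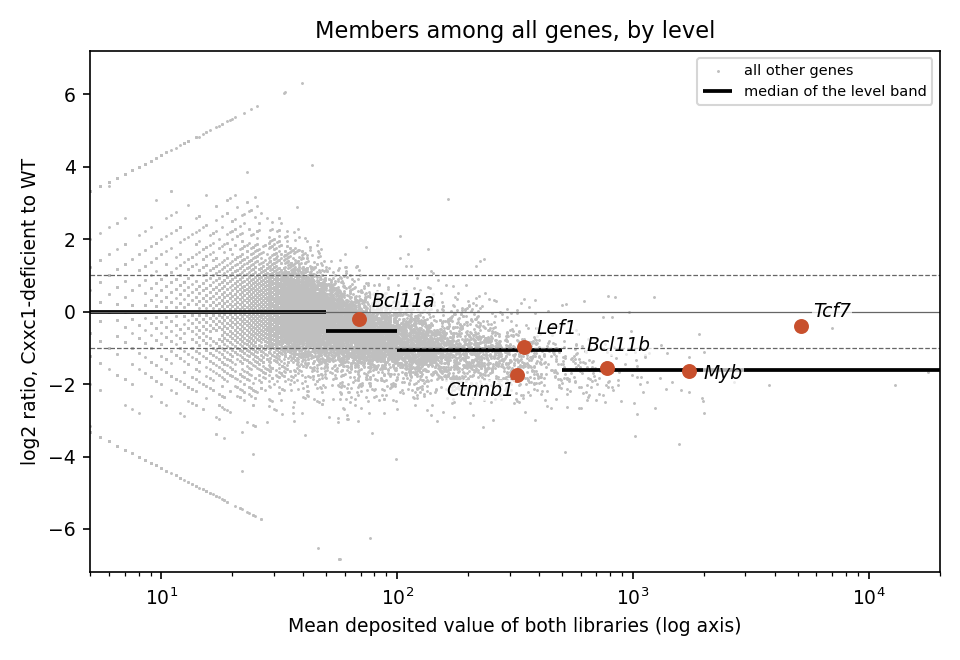
Log2 ratio of *Cxxc1*-deficient to WT (y axis) against the mean value of both libraries (x axis, log scale) for genes with a mean of at least 5, with the median of each level band as a black line and 2-fold as dashed lines. *Bcl11b*, *Myb* and *Lef1* sit at the median of their bands, *Ctnnb1* is below it, and *Tcf7*, at -0.39, is above the median of -1.61.

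What differed between members was their proportion to each other, which no scaling of the libraries can alter. The value of *Tcf7* was 11.7 times that of *Ctnnb1* in WT and 30.1 times in deficient cells. It was 2.22 times that of *Myb* in WT and 5.26 times in deficient cells, and 5.01 and 11.3 times that of *Bcl11b*. Against *Bcl11a* it went the other way, from 78.7 times in WT to 69.7 times in deficient cells. With the olfactory receptor median subtracted, the log2 ratios of *Tcf7* and *Bcl11a* were -0.39 and -0.38, so this proportion was then nearly level. Against its partner *Lef1*, the value of *Tcf7* was 12.7-fold in WT and 19.1-fold in deficient cells. *Tcf7* made up 54.8% of the summed value of the 6 genes in WT and 72.5% in deficient cells. Between the paralogues, *Bcl11a* was at 0.0637 of the *Bcl11b* value in WT and at 0.162 in deficient cells, with *Bcl11a* close to the level of unexpressed genes. Levels of different genes can be set side by side only if the values are per transcript length. With 18578 genes split into 3 equal parts by length, the median WT value was 28, 38 and 47 for median lengths of 1098, 2549 and 4706 bases, which is far from a rise in proportion to length. These medians lie under 53.95, the 95th percentile of olfactory receptor genes in WT. They therefore mostly describe genes near the unexpressed level and cannot decide the unit for well-expressed genes. Of these proportions, the change between libraries can be read, and the size within 1 library is given as the files have it.

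Reads that map to several places were discarded by the authors, which can empty a gene that has copies elsewhere. Of the 50-base stretches of the longest transcript that lie unbroken in the genome, 100% were found at a single place for *Tcf7*, *Lef1*, *Ctnnb1*, *Bcl11a* and *Myb*, and 99.3% for *Bcl11b*. For the HMG-box gene *Hmgb1*, listed at 0 in both libraries, the share was 27.1%. The values of the 6 members therefore rest on sequence that is almost wholly unique at exact match, while most of the *Hmgb1* stretches found were at several places. For *Gapdh* the share found at a single place was 12.8%, and its value was 6 in WT and 10 in deficient cells. The part of discarded reads in the 0 of *Hmgb1* was not tested.

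The genes that work with the members were taken as 9 lists, in which 119 genes had a value above 0. As deposited, 29 of these were at least 2-fold lower and 5 higher, against 17.4% and 5.89% of all genes. With the same 75th percentile there were 17 lower and 12 higher. With the same median over genes whose mean reached 100 there were 5 lower and 49 higher. These 2 scalings moved the median of all genes by 0.39 and 1.0 on the log2 scale. The shares of all genes past 2-fold under them were not counted, so these changes in count are not particular to the lists. The counts below are as deposited.

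Other HMG-box genes showed no common direction. Of the 9 with a value above 0, 3 were at least 2-fold lower, 0 were at least 2-fold higher and the median log2 ratio was 0.06. Of the 3 with a mean of at least 100, 2 were at least 2-fold lower, against 56.8% of all genes of that level. *Tox*, an HMG-box factor of positive selection, had 287 in WT and 300 in deficient cells. *Sox4*, a SOX factor of lymphoid progenitors, had 206 and 84, and *Hmgb2*, a chromatin protein of dividing cells, had 152 and 56. The TCF relatives *Tcf7l1* and *Tcf7l2* were at the level of unexpressed genes, with 26 and 38 for *Tcf7l1* and 40 and 49 for *Tcf7l2*.

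Among 18 cofactors of beta-catenin and TCF proteins, 6 were at least 2-fold lower and 0 were 2-fold higher, with a median log2 ratio of -0.47. Of the 5 with a mean of at least 100, 3 were at least 2-fold lower, near the share of 56.8% over all genes of that level. The acetyltransferase genes were nearly level as deposited, with *Crebbp* at 398 in WT and 308 in deficient cells and *Ep300* at 270 and 249, and both were above their WT value with scaling to the same summed value. *Hdac2*, a deacetylase that acts with repressors, had 389 and 89, a fold reduction of 4.37. *Aes*, a short Groucho-related protein, had 267 and 93. *Tle1*, *Tle2*, *Tle3*, *Tle4* and *Tle6* were all less than 2-fold apart between the libraries, but their values were low. *Tle1* had 50 and 58, *Tle2* had 37 and 34 and *Tle6* had 22 and 16, near the level of unexpressed genes, where a reduction could hardly show. *Tle3* had 92 and 64, and *Tle4* had 67 and 53. *Hdac2* is also among the genes that the study selected on these libraries, as are *Hdac1*, *Myc* and *Satb1*, and their changes are not independent of that choice.

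Of 12 genes of the complex that destroys beta-catenin, 6 were at least 2-fold lower and 0 were 2-fold higher, and the median log2 ratio was -0.90. All 6 were among the 7 genes of the list with a mean of at least 100, a level at which 56.8% of all genes were at least 2-fold lower and 95.2% were lower by any amount. The kinase gene *Csnk1a1* had 635 in WT and 161 in deficient cells, a fold reduction of 3.94. *Gsk3b*, the kinase that marks beta-catenin for destruction, had 509 and 176, a fold reduction of 2.89, and *Csnk1e* had 383 and 120. The scaffold gene *Apc* was the seventh of this level, with 216 and 169.

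Wnt ligands and receptors were mostly at the level of unexpressed genes. Of 19 ligand genes, 1 in WT and 0 in deficient cells were above the 95th percentile of olfactory receptor genes. The highest were *Wnt8b* in WT with 78 (45 in deficient cells) and *Wnt5a* in deficient cells with 53 (49 in WT). Of 16 receptor and transducer genes, 2 in WT and 1 in deficient cells were above that percentile. The coreceptor gene *Lrp6* was the highest of them, with 179 and 75, a fold reduction of 2.39. Among both lists, 1 gene was at least 2-fold lower and 4 were 2-fold or more higher, against 17.4% and 5.89% of all genes. The 4 higher genes were at values near the level of unexpressed genes.

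Of 12 genes known to respond to Wnt and beta-catenin, 0 were at least 2-fold lower and 1 was at least 2-fold higher, against 17.4% and 5.89% of all genes. The median log2 ratio was -0.06. Most of the 12 had values near those of olfactory receptor genes in both libraries, and 2 were above the 95th percentile in each. *Myc*, a driver of cell growth that many pathways control, had 91 in WT and 192 in deficient cells, a ratio of 2.11. Every scaling tried raises the deficient values, so none could turn it lower. *Axin2*, the feedback inhibitor most often used as a readout of beta-catenin, had 53 and 33, under the 95th percentile of olfactory receptor genes in both.

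Of the 4 genes of the Myb list with a mean of at least 100, 3 were at least 2-fold lower, against 56.8% of all genes of that level. *Rag2*, which encodes a subunit of the recombinase, had 1219 in WT and 405 in deficient cells, a fold reduction of 3.01. *Cd4* had 2728 and 1257, a fold reduction of 2.17, and *Bcl2l1*, which encodes the survival protein BCL-XL, had 178 and 73. *Gata3*, at 153 and 101, was less than 2-fold lower. Over the 9 genes of the Myb list, 3 were at least 2-fold lower and 0 were 2-fold higher, and the other family members *Mybl1* and *Mybl2* were at 38 and 37 and at 27 and 19.

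Genes that BCL11B keeps silent after commitment stayed low in both libraries. Of 15 such genes of natural killer cells, innate lymphocytes and progenitors, 3 were at least 2-fold lower and 0 were 2-fold higher, against 17.4% and 5.89% of all genes. The median log2 ratio was 0.18. The 3 lower genes, *Tyrobp*, *Klrd1* and *Fcer1g*, were under the 95th percentile of olfactory receptor genes in both libraries. In *Cxxc1*-deficient cells 0 of the 15 were above the 95th percentile of olfactory receptor genes. The highest was *Id2* in WT, with 61 (41 in deficient cells), and *Nfil3* in deficient cells, with 52 (29 in WT).

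Of 12 other regulators of T identity, 7 were at least 2-fold lower and 0 were 2-fold higher, with a median log2 ratio of -1.16, near the -1.08 over all genes with a mean of at least 100. All 7 were among the 9 genes of the list at that level, at which 56.8% of all genes were 2-fold lower. The genome organizer gene *Satb1* was the one closest to *Tcf7* in WT level, with 6080 in WT and 1492 in deficient cells. *Ikzf1* had 1575 and 682, and *Themis*, a T-cell protein of positive selection, had 2029 and 573.

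**Figure D4:**
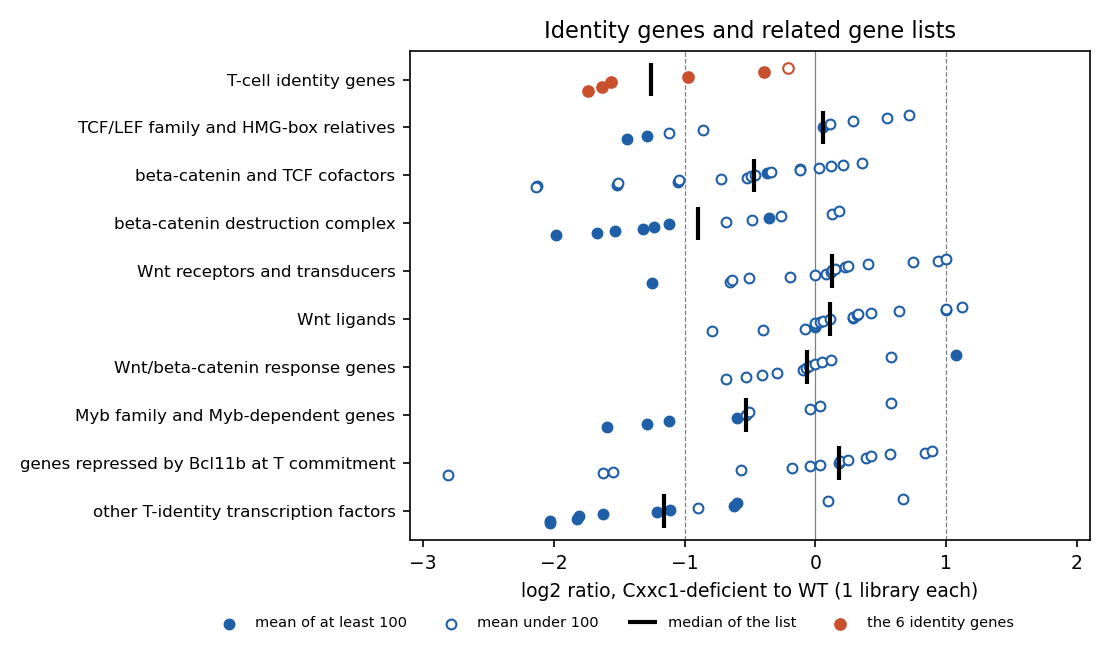
Log2 ratio of *Cxxc1*-deficient to WT (x axis) for each gene of the 6 members and of the 9 related lists (y axis), filled where the mean value is at least 100, with the list median as a bar and 2-fold as dashed lines. The destruction complex and the other T-identity factors have medians of -0.90 and -1.16 as deposited, while Wnt response genes have -0.06 with *Myc* alone past 2-fold.

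Markers of the stage before DP were higher in sum. The 7 markers of double-negative (DN) thymocytes summed to 378 in WT and 887 in deficient cells. Of these, 3, *Il2ra*, *Notch1* and *Notch3*, were at least 2-fold higher, against 5.89% of all genes. *Notch1* had 124 and 326, *Il2ra* had 63 and 207 and *Notch3* had 56 and 167, and most of the higher sum came from these 3. The other 4 DN markers were less than 2-fold apart and near the level of unexpressed genes. *Cd44* had 35 and 58, *Hes1* had 28 and 52, *Kit* had 35 and 36 and *Dtx1* had 37 and 41. The 15 DP markers summed to 41897 in WT and 11590 in deficient cells, and 13 of them were at least 2-fold lower. All 13 were among the 14 with a mean of at least 100, a level at which 56.8% of all genes were at least 2-fold lower. No marker of either list was at 0. *Tcf7* is a gene that DN thymocytes also express, and the part of DN transcripts in its value was not tested.

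By values in the 2 libraries alone, the genes most like each well-expressed member were named by their distance on the log2 scale. *Bcl11b* was closest to *Ywhaz* (1147 in WT and 391 in deficient cells, distance 0.02) and *Msn* (distance 0.07). *Ctnnb1* was closest to *Nras* and *Htatsf1*, both at a distance of 0.04. *Lef1* was closest to *Klhl24* and *Eps15*, at 0.06 and 0.08, and *Myb* to *Smc4* and *Xist*, at 0.07 and 0.29, the value of *Xist* also depending on the sex of the mice. *Tcf7* had no close neighbour, the nearest being the ribosomal precursor *Rn45s* (8122 and 5883) at 0.62 and then *Satb1* at 1.58.

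**Figure D5:**
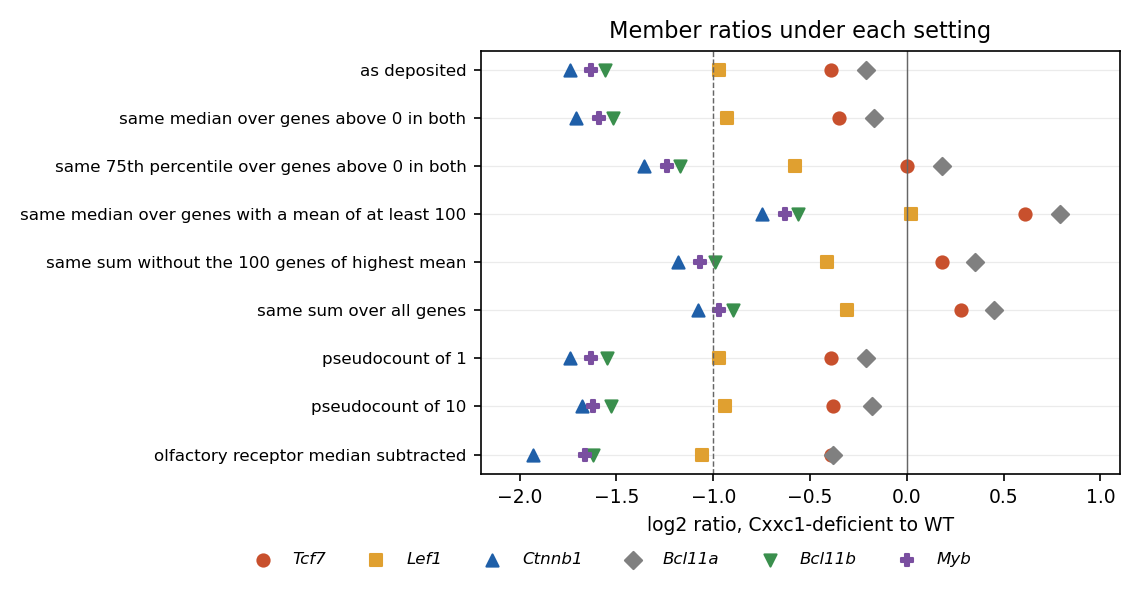
Log2 ratio of *Cxxc1*-deficient to WT (x axis) of each member under each scaling, pseudocount and background setting (y axis), with 0 as a solid and 2-fold lower as a dashed line. *Ctnnb1*, *Myb* and *Bcl11b* stay below 0 in every setting shown, *Tcf7* ranges from -0.39 to 0.61 and *Bcl11a* from -0.38 to 0.79. The members keep the same order in every setting shown. Scaling shifts all members alike, by at most 1.0 on the log2 scale, so it cannot alter that order.

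The CpG content of the promoter windows did not order the members by their change. *Tcf7* and *Myb*, with 43 and 40 CpG in the sequences above, had log2 ratios of -0.39 and -1.63, and *Bcl11b*, with 9, had -1.56. These 3 were chosen after their values were seen, for being unlike. *Ctnnb1*, with 35 CpG, had -1.74, *Lef1*, with 26, had -0.97 and *Bcl11a*, with 6, had -0.21. Among genes whose mean reached 100, the median log2 ratio was -1.07 over the 202 genes with 0 to 4 CpG, -1.02 over the 608 with 5 to 14 and -1.10 over the 1507 with 15 or more, differences that are small beside the spread within each class, which had quartiles of -1.45 and -0.78 in the last.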

How the data were processed

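RNA-seq of DP thymocytes was analysed for 1 WT and 1 *Cxxc1*-deficient library, grouped by title. The authors prepared mRNA libraries with NEBNext reagents, obtained reads of 50 bases with CASAVA 1.8.2, mapped them to mm9, discarded reads without a unique place and used Partek Genomic Suite 6.6; the submitters' processing notes also name Bowtie 1.0.1. Each deposited value is a score, meaning here normalized expression of a gene that the authors gave as a whole number. Its unit and annotation are not given in the sources used here.

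Ratios were taken with values raised to at least 1. The threshold was 2-fold, as in the study. No test was run with 1 library per genotype. Level bands (mean under 50, 50 to under 100, 100 to under 500, 500 and over) gave the background. Positions, lengths and promoter windows came from GENCODE vM1 on NCBIM37, in which 18578 genes and all 6 members were matched by symbol. Named were the members, *Cxxc1*, the 3 genes of highest mean in each list, genes of a list at least 2-fold higher with a mean of at least 100, the 2 nearest genes of each member, and the highest marker of a list; other genes were chosen after their values were seen. Members and lists were chosen with earlier results of these data known. Alternatives were 5 scalings, pseudocounts of 1 and 10, subtraction of the olfactory receptor median, other thresholds and a filter on low values. The ratio script was tested on simulated data. Markers of mature SP, macrophage, NK, erythroid and stromal cells were also summed, and are given in the closing section. Python 3.11.15, numpy 2.4.6, pandas 2.3.3 and matplotlib 3.10.9 were used. Some single marker genes are not reported here.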

Additional observations from a re-analysis of the deposited data

How the results depend on the processing

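The direction of *Tcf7*, *Bcl11a* and *Lef1* depended on the scaling. With the same 75th percentile, the log2 ratio was 0.00 for *Tcf7*, just above its WT value, and 0.18 for *Bcl11a*. With the same sum without the 100 highest genes it was 0.18 for *Tcf7* and 0.35 for *Bcl11a*. With the same sum over all genes, a setting chosen after seeing the data, it was 0.28 for *Tcf7*, 0.45 for *Bcl11a*, -0.31 for *Lef1*, -1.08 for *Ctnnb1*, -0.90 for *Bcl11b* and -0.97 for *Myb*, with 1 member at least 2-fold lower and a median of -0.60. With the same median over genes whose mean reached 100, it was 0.61 for *Tcf7*, 0.02 for *Lef1*, 0.79 for *Bcl11a*, -0.75 for *Ctnnb1*, -0.56 for *Bcl11b* and -0.63 for *Myb*, with 0 members past 2-fold and a median of -0.27. These settings moved the median of all genes by 0.39, 0.56, 0.66 and 1.00 on the log2 scale, and each value follows from that shift. Of the 119 genes of the related lists above 0, 29 were at least 2-fold lower and 5 higher as deposited, 17 and 12 with the same 75th percentile, and 5 and 49 with the same median over genes whose mean reached 100. *Ctnnb1*, *Bcl11b* and *Myb* stayed lower in all settings run, and pseudocounts, subtracting the median olfactory receptor value, other thresholds and the filter turned no direction. That subtraction took *Lef1* to -1.06, with 4 members then at least 2-fold lower, and a 3-fold threshold left 2. The number of reads is unknown, which limits what can be said of *Bcl11a* and of list genes near the olfactory receptor level. No paired analysis was possible because a single library stands for each genotype.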

Other observations

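The 10 genes that, like *Tcf7*, had a mean of 500 and over and kept more of their WT value were *Srrm2*, *Ucp2*, *Sfi1*, *Lgals9*, *Trp53i11*, *B2m*, *Dgka*, *Ly6e*, *Rabgap1l* and *Cat*. They were named after their values were seen. *Ucp2*, a mitochondrial carrier, had 1052 in WT and 1403 in deficient cells, and *B2m*, the light chain of MHC class I, had 964 and 965.

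The 7 markers of mature single-positive thymocytes summed to 434 in WT and 391 in deficient cells. The 10 macrophage and myeloid markers in the table summed to 396 and 350, the 8 NK and innate lymphoid markers to 287 and 208, the 8 erythroid markers to 247 and 213, and the 11 epithelial and stromal markers to 361 and 307. *Hba-a1* and *Hba-a2* were at 0 in both libraries, and *Tyrobp* and *Krt8* were at 0 in deficient cells.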
